A study of Mus musculus with 12 samples.

Results

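The replication-dependent histone genes are the clustered genes that supply the nucleosome with its core and linker proteins while DNA is copied. They were chosen by symbol alone, as every gene in the count files named Hist1h, Hist2h, Hist3h or Hist4h, and the rule uses no measured value. The rule found 68 of 20661 genes, of which 6 belong by symbol to linker histone H1, 18 to H2A, 19 to H2B, 12 to H3 and 13 to H4. All 68 were matched by symbol in the GENCODE M21 annotation of GRCm38 (mm10), and 67 have an annotated coding sequence there. The other, Hist3h2bb-ps of the H2B class, has none and is annotated as a processed pseudogene.

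Mouse embryonic fibroblasts (MEFs, cells grown from the connective tissue of embryos) of 3 kinds were measured at passage 4, each by RNAseq and by ribosome profiling with 2 replicates, which gave 12 libraries. WT-shSCR MEFs were wild type and carried a lentiviral scrambled short hairpin RNA. WT-shARF MEFs were wild type and carried a hairpin against Arf, and Arf-/--shSCR MEFs lacked Arf and carried the scrambled hairpin. All cells had been transduced and selected with puromycin, so the controls share the virus and the drug. The strain of the wild-type cells is C57BL/6J in the labels but B6129SF2/J in the study's methods, which name B6.129X1-Cdkn2atm1Cjs/KaiJ for the Arf-/- MEFs. In that allele exon 1β of Cdkn2a is replaced by a neo cassette in all cells of the animal, and the strains differ besides the allele. Genotype and strain therefore cannot be told apart in any comparison with the Arf-/--shSCR MEFs. Neither source says whether replicates came from separate animals or cultures, so p-values measure the spread between these libraries, which may be technical.

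Cells need an equal mass of histone and DNA, so these genes are switched on together as S phase begins and their mRNAs are destroyed as it ends. Their mRNAs are the only known metazoan messengers without a poly(A) tail. They end in a conserved stem-loop that the stem-loop binding protein SLBP holds through processing, export, translation and decay. NPAT, which is phosphorylated by cyclin E and CDK2, drives their transcription, and the U7 snRNP cuts the transcript after the stem-loop. Because the RNAseq libraries were made from rRNA-depleted total RNA rather than from poly(A)-selected RNA, they could include these tailless mRNAs.

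The stem-loop was searched by its consensus in the first 150 bases after the stop codon, on the coding strand. It was present in 45 of the 68 genes (66.2%), and in 45 of the 52 with at least 20 annotated bases after the stop (86.5%). Among other protein-coding genes it was found in 4 of 20518 (0.0195%), which include the histone genes H2afx and H2bfm. In the 44 single-exon genes placed on the genome it began 21 to 58 bases after the stop, with a median of 31.5. The 45 genes held 8 different versions, and 25 of them (55.6%) shared 1 version. The excerpts show the common version in an H1 gene, the versions of an abundant H2B and an abundant H4 gene, a version found in 1 H3 gene only, and the isolated gene on chromosome 6, because results below turn on these genes. Capitals mark the 16-base stem-loop, and each line reads 5′ to 3′ on the gene's strand with positions in GRCm38.
Hist1h1c, chr13:23739507-23739532, plus strand: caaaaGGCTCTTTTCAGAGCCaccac
Hist1h2bb, chr13:23747198-23747223, plus strand: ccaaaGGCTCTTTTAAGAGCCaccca
Hist1h4d, chr13:23581945-23581970, plus strand: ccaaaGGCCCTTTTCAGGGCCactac
Hist1h3g, chr13:23535884-23535909, plus strand: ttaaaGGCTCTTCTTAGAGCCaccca
Hist4h4, chr6:136803993-136804018, minus strand: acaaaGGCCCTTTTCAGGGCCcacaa

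The members also share promoter letters. Of the 62 genes with a RefSeq promoter (GRCm38.p6, from 250 bases before to 50 after the start), CCAAT on either strand was present in 53 (85.5%), against 37.4% of all promoters. It was in every H1, H2A, H2B and H3 promoter but in 3 of 12 H4 promoters (25%). TATAAA on either strand was in 56.5% of the members and in 13.6% of all promoters. The octamer ATTTGCAT, the motif bound by POU2F1, was found on either strand in 13 of the 62 (21%) and in 1.74% of all promoters. All 13 belong to 7 H2A and 6 H2B genes. Neighbouring H2A and H2B genes can share 1 octamer, as do Hist1h2ae and Hist1h2bg, whose excerpts are the same stretch read from opposite strands. The octamers of Hist1h2bb and Hist2h2bb, the H2B genes with the most reads, are shown beside them, with the octamer or its reverse complement in capitals. A match is a description of these letters and not a bound site.
Hist1h2ae, chr13:23571330-23571359, minus strand: atagaggttctATGCAAATaagggactcaa
Hist1h2bg, chr13:23571330-23571359, plus strand: ttgagtcccttATTTGCATagaacctctat
Hist1h2bb, chr13:23746633-23746662, plus strand: ttgagtctcttATTTGCATaaagcctttga
Hist2h2bb, chr3:96269641-96269670, plus strand: tgtgaaacctcATTTGCATacaagctctat

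The genes lie close together. Chromosome 13 holds 54 of them over 2219.1 kb (chr13:21715763-23934851), chromosome 3 holds 10 (chr3:96219865-96270132), chromosome 11 holds 3 and chromosome 6 holds Hist4h4. Of the 68, 63 have a single exon and 24 overlap another annotated gene. The 67 coding genes make 31 different proteins. All 13 H4 genes encode 1 protein, the 12 H3 genes encode 3, the 18 H2A genes 9, the 18 coding H2B genes 12, and the 6 H1 genes 6. At the nucleotide level 63 coding sequences are distinct, because synonymous codons separate most copies. The first 30 coding bases of 4 H4 genes show how much the copies differ while encoding the same residues, with each base that differs from Hist1h4d in capitals.
Hist1h4d, chr13:23581602-23581631, plus strand: atgtctggacgcgggaaaggcggcaagggt
Hist1h4k, chr13:21750476-21750505, minus strand: atgtctggCAgAggTaaGggcggGaaAggG
Hist1h4n, chr13:21832129-21832158, minus strand: atgtctggTcgTggCaaaggAggAaaAggC
Hist4h4, chr6:136804350-136804379, minus strand: atgtcAggacgAggAaaaggcggcaagggt

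Likeness between copies sets what these files can show, because HTSeq leaves out a read that aligns to more than 1 place. Every 28-nt window that overlaps a coding sequence was therefore looked up in all GENCODE M21 transcripts of other genes. The median share of windows found in no other gene was 83.0% for H1, 12.2% for H2A, 21.3% for H2B, 17.4% for H3 and 32.7% for H4. Over all coding members it was 22.8%. Counts were 0 in all 12 libraries for 9 genes: Hist1h2ao, Hist1h2ap, Hist1h2bq, Hist1h2br, Hist1h4m, Hist2h2aa1, Hist2h2aa2, Hist2h3c1 and Hist2h3c2. Their unique share ran from 0.0% to 7.4%, so a count of 0 there does not show that the gene is silent. A low share did not always go with a count of 0. Hist1h3h (5.2% unique) and Hist1h3i (6.0%) had mean RNA of 39.1 and 47.7 CPM in WT-shSCR, whereas Hist1h2ap (6.0%) and Hist1h4m (7.4%) had no reads. The reason was not tested. Of the 8 coding genes under 5% unique, the highest mean RNA level was 0.755 CPM (counts scaled to library size with TMM factors). By bins of unique share the median RNA level went from 0 CPM under 5% to 56.2 CPM between 5% and 20% (21 genes), 91.0 CPM between 20% and 50% (24 genes) and 144 CPM above 50% (14 genes). Across 67 genes, which share libraries and sequence, Spearman's rho between unique share and mean level was 0.57 in RNA and 0.58 in footprints, as a description.

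**Figure D1:**
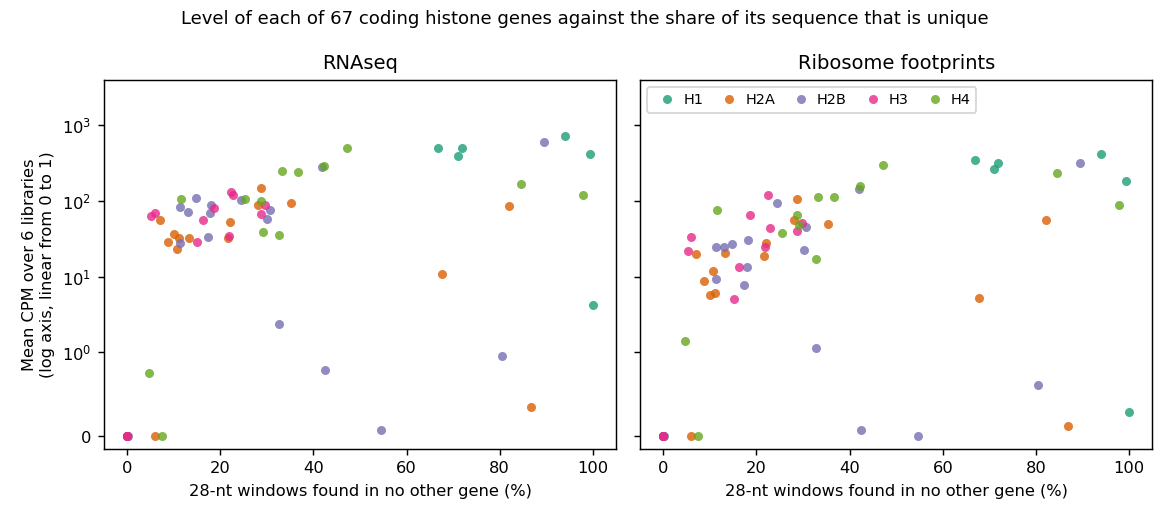
Mean CPM over 6 libraries (log axis, linear from 0 to 1) of 67 coding histone genes against the share of their 28-nt windows found in no other gene, in RNAseq and in ribosome footprints, coloured by class. The 8 genes under 5% unique sit at or near 0, and most H1 genes sit at the upper right.

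A low level at a high unique share has another meaning. Hist1h2aa and Hist1h2ba, testis histones encoded side by side, had at most 4 and 2 reads in any library although 86.8% and 54.6% of their windows are unique. Hist2h2be, with 80.4% unique, had at most 4 reads, and Hist3h2ba, with 42.4%, had at most 8. Hist1h1t, the linker histone of male germ cells and wholly unique, had 2.58 to 6.40 CPM of RNA in the 6 RNAseq libraries. It was the H1 gene with the fewest reads by far, since the other 5 had at least 209.8 CPM. Altogether 15 genes had too few reads to be tested in any fit, 3 (Hist1h1t, Hist1h2bp and Hist2h2ab) were tested in some fits, and 50 in every fit. The filter keeps a gene through whichever group is high, so counts below cover genes that passed and not all members.

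Reads on genes numbered 1578627 to 3989908 in the RNAseq libraries and 2544319 to 5157572 in the ribosome profiling libraries. Alignments that were not unique made up 79.22% to 81.38% and 46.34% to 52.92% of the alignments. The histone genes took 0.404% to 1.37% of gene reads in RNAseq and 0.284% to 0.581% in ribosome profiling. Cdkn2a, the gene that encodes ARF, went against a label: its RNA was 44.8 and 42.0 CPM in WT-shSCR, 27.7 and 32.2 CPM in Arf-/--shSCR, but it reached 644 and 668 CPM under the WT-shARF label. Its footprints were 93.4 and 66.2 CPM in WT-shSCR, 39.6 and 34.4 CPM in Arf-/--shSCR and 533 and 741 CPM under the WT-shARF label. Counts per gene also cover INK4A, the other product of the locus, and do not separate it from ARF. According to the study, its hairpin against Arf leaves INK4A expression unchanged. The study also examined ARF protein in these MEFs by immunoblot as its check of knockdown and knockout, which is not analysed here. Results for the knockdown are given by its label. All 10 fibroblast markers examined had reads in each group, and they summed to 21331 and 24782 CPM of RNA in WT-shSCR, 22300 and 22125 CPM in WT-shARF and 17463 and 16237 CPM in Arf-/--shSCR MEFs. In footprints these sums were 49439 and 46806, 54210 and 52691, and 36621 and 36744 CPM. Markers of macrophages (12 genes) summed to 314 and 296 CPM of RNA in WT-shSCR, 209 and 146 CPM in WT-shARF and 45.5 and 58.4 CPM in Arf-/--shSCR MEFs, and in the last group Aif1 and Tlr8 were at 0. Mesothelial or epithelial markers (8 genes) summed to 91.9 and 94.9, 56.8 and 69.1, and 159 and 181 CPM. The part of such a change in cell makeup in the histone results was not tested.

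In the Arf-/--shSCR MEFs 1 RNAseq library stands apart in these genes. Summed over the members, histone RNA was 4912 and 4119 CPM in WT-shSCR, 6722 and 5421 CPM in WT-shARF, and 9726 and 14228 CPM in Arf-/--shSCR MEFs. Replicate 2 of the Arf-/--shSCR MEFs was 1.46 times replicate 1, and 49 of the 50 genes tested throughout were higher in it. Its S-phase genes did not share this, at 3760 CPM in replicate 1 and 3465 CPM in replicate 2. The footprint sums of the 2 replicates were 5703 and 5222 CPM, against 2943 and 2847 CPM in WT-shSCR and 4771 and 4620 CPM in WT-shARF. In both assays every Arf-/--shSCR and WT-shARF library was above both WT-shSCR libraries. The mean fold of WT-shSCR was 2.65 in RNA and 1.89 in footprints for Arf-/--shSCR, and 1.34 and 1.62 for WT-shARF. In bulk samples a larger share of cells that hold histone mRNA and more of it per cell cannot be told apart.

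**Figure D2:**
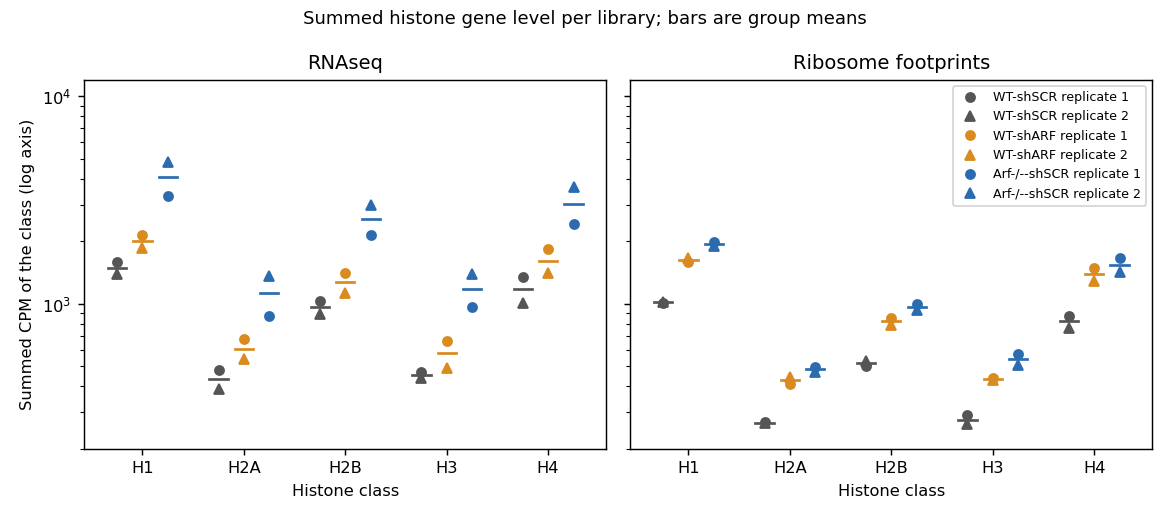
Summed CPM (log axis) of the genes of each histone class in every library, for RNAseq and ribosome footprints. Circles are replicate 1, triangles replicate 2 and short bars group means; the RNA of the 2 Arf-/--shSCR replicates lies apart in every class (3307 and 4830 CPM in H1) while their footprints lie together (1985 and 1895 CPM in H1).

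All 5 classes shifted together. In RNA the mean fold of WT-shSCR in the Arf-/--shSCR MEFs was 2.73 for H1, 2.59 for H2A, 2.67 for H2B, 2.6 for H3 and 2.59 for H4. In footprints the folds were 1.91, 1.82, 1.87, 1.95 and 1.87 in the same order. Under the WT-shARF label they were 1.34, 1.40, 1.32, 1.27 and 1.37 in RNA and 1.61, 1.60, 1.60, 1.56 and 1.69 in footprints. The makeup of the pool moved little. H1 genes gave 33.0%, 33.0% and 34.0% of histone RNA reads in the WT-shSCR, WT-shARF and Arf-/--shSCR groups, and H4 genes gave 26.0%, 26.6% and 25.4%. H1 genes also have the highest unique share and the longest coding sequences, and the sums count unique reads, so they do not rank the classes by protein made.

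In H1, H2A, H2B and H4 the same gene led the RNA reads of its class in each group. Hist1h4d gave 24.1% of H4 RNA reads in WT-shSCR, 25.2% in WT-shARF and 26.0% in Arf-/--shSCR. Hist2h2bb gave 35.0%, 37.7% and 38.0% of H2B RNA reads. Hist1h1b led H1 with 28%, 27.1% and 29.3%. Hist1h2ab led H2A with 21.4%, 22.7% and 19.0%. In H3 no single gene led: Hist1h3f and Hist1h3c had 75.8 ± 10.5 and 75.1 ± 10.4 CPM of RNA in WT-shSCR, 89.7 ± 33.8 and 100.1 ± 16.1 CPM in WT-shARF, and 198 ± 74.6 and 212 ± 45.1 CPM in Arf-/--shSCR (SD, n = 2), which differ by less than their spread. Per kilobase of coding sequence, mean RNA in WT-shSCR was 908 CPM for Hist1h4d, 884 CPM for Hist2h2bb, 621 CPM for Hist1h1b and 236 CPM for Hist1h2ab. Per kilobase of unique windows the same genes had 1901, 1063, 661 and 805 CPM, so their order depends on the allowance for reads that could not be placed.

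Loss of Arf was compared with WT-shSCR first in RNA. Of 10659 genes tested by edgeR's quasi-likelihood test, 3.94% were called higher and 3.99% lower at a Benjamini-Hochberg adjusted p under 0.05. Of the 52 histone genes tested, 48 were called higher and 0 lower. Their median log2 fold change was 1.37, against -0.00 over all genes, with a range of -0.28 to 1.97. Both Arf-/--shSCR libraries were above both WT-shSCR libraries for 51 of 52, against 25.3% of all genes. By class 5 of 6 tested H1, 10 of 13 H2A, 12 of 12 H2B, 10 of 10 H3 and 11 of 11 H4 genes rose. The 4 that did not pass were Hist1h1t, Hist1h2af, Hist1h2ag and Hist2h2ab, which are named because they are the exceptions. Hist1h1t alone had a negative value (-0.28, standard error 0.64). The count depends on which library is left out: 29 genes were called without WT-shSCR replicate 2 and 37 without replicate 1, when the share of all genes called higher also fell, to 0.982% and 0.946%. The median was 1.07 without Arf-/--shSCR replicate 2 and 1.62 without replicate 1, with 45 and 49 genes called.

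Among linker histones, which bind the DNA that enters and leaves the nucleosome, Hist1h1a had the largest RNA change. Its RNA was 237 and 220.1 CPM in WT-shSCR and 580.5 and 864 CPM in Arf-/--shSCR, or 3.15-fold (log2 1.66 ± 0.18, SE; adjusted p = 7.34e-06, edgeR). Hist1h1b, the H1 gene with the most reads, went from 422 and 413 CPM to 963 and 1418 CPM, or 2.85-fold (adjusted p = 1.51e-05, edgeR). Neither gene's groups overlap. Hist1h1c, whose transcript is also made outside S phase in many cells, had the smallest change of the 5 abundant H1 genes at 2.45-fold (342 and 284 CPM against 635 and 903 CPM). Hist1h1d and Hist1h1e rose 2.57-fold and 2.66-fold. Their log2 values (1.36 ± 0.19 and 1.41 ± 0.16, SE) differ from that of Hist1h1c (1.29 ± 0.17) by less than these errors. A link of this order to expression outside S phase was not tested.

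Among the core histones, the H3 gene Hist1h3d had the largest log2 fold change, 1.97, from 16.9 and 11.6 CPM to 43.7 and 72.1 CPM. H2A genes filled the next places. Hist1h2ae went from 20 and 9.04 CPM to 42.6 and 69.6 CPM (log2 fold change 1.86), Hist1h2ah from 20 and 7.10 CPM to 35.3 and 68.3 CPM (1.82) and Hist1h2ai from 33.5 and 23.9 CPM to 70.2 and 120.2 CPM (1.69). These 3 and Hist1h3d (45 and 18 RNA reads in WT-shSCR) rest on few reads, and their WT-shSCR replicates lie far apart. Hist1h3a went from 50.4 and 47.1 CPM to 122 and 172 CPM (3.0-fold), and the other abundant H3 genes Hist1h3c, Hist1h3f and Hist1h3e rose 2.80-fold, 2.58-fold and 2.49-fold. Among the abundant H2A genes, Hist1h2ab and Hist3h2a, on chromosome 11, changed less than these H3 genes. Hist1h2ab was at 106 and 79.4 against 162 and 263 CPM (2.27-fold), and Hist3h2a at 51.6 and 70.4 against 83.7 and 154 CPM (1.96-fold). Hist2h2ac rose 2.61-fold and Hist1h2ak 2.87-fold, within the range of the H3 genes.

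The H2B genes kept to a narrow band, with log2 fold changes of 1.08 to 1.55. Hist2h2bb went from 366 and 308 CPM to 832 and 1119 CPM (log2 fold change 1.53, standard error 0.17, adjusted p = 9.36e-06, edgeR), and Hist1h2bb from 173 and 181 CPM to 364 and 513 CPM (1.31). Hist1h2bn had the largest H2B value, 1.55. In H4, all genes of which encode the same protein, Hist1h4d went from 321 and 245 CPM to 617 and 962 CPM, or 2.77-fold (adjusted p = 6.80e-05, edgeR). Hist1h4k had the largest H4 change, 1.60, and Hist1h4i the smallest, 0.86, at 29 and 29 CPM against 53.9 and 51.5 CPM. Hist1h4i is also the 1 gene of the 50 that was not higher in Arf-/--shSCR replicate 2 than in replicate 1. Hist4h4, the lone gene on chromosome 6, rose 2.49-fold and Hist2h4, on chromosome 3, 2.48-fold, beside 2.42-fold for Hist1h4c and 2.35-fold for Hist1h4h of the chromosome 13 cluster.

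Footprints, which report ribosomes on the mRNA, were then compared between the same groups. Of 10737 genes tested, 9.57% were called higher and 8.95% lower. Of 51 histone genes tested, 40 were called higher and 0 lower by edgeR's quasi-likelihood test, with a median log2 fold change of 1.02 against -0.00 over all genes. Both Arf-/--shSCR libraries were above both WT-shSCR libraries for 50 of 51, against 27.6% of all genes. By class 5 of 5 H1, 7 of 13 H2A, 8 of 12 H2B, 9 of 10 H3 and 11 of 11 H4 genes rose. The 40 called in footprints were all among the 48 called in RNA, so they are 83.3% of the RNA calls and 100% of the footprint calls. With either WT-shSCR replicate left out the fit called 0 of these genes and 0 genes in all, at a median of 1.03 and 1.02 for the histone genes. With Arf-/--shSCR replicate 1 left out 26 were called, and with replicate 2 left out 34.

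Hist1h1a again led the H1 genes, at 108 and 92.6 CPM of footprints in WT-shSCR and 279 and 239 CPM in Arf-/--shSCR (2.61-fold, adjusted p = 1.08e-09, edgeR). Hist1h1b went from 263 and 275 CPM to 568 and 543 CPM (2.08-fold) and Hist1h1c from 236 and 254 CPM to 377 and 375 CPM (1.55-fold). Hist1h1c thus had the smallest change of the abundant H1 genes in both assays, though in RNA by less than its standard error. The largest log2 fold changes among called genes were in H2B and H3. Hist1h2bk, from 11.5 and 13.4 CPM to 39.8 and 35.6 CPM, had 1.62, and Hist1h2bg, from 12.8 and 21.3 CPM to 47.5 and 46.4 CPM, had 1.49. Hist1h3a, at 27.5 and 27.2 against 74.7 and 77.8 CPM, also had 1.49.

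Hist1h3h, Hist1h2bl, Hist1h3g, Hist1h3i, Hist1h2ak and Hist1h2ai followed, with footprint log2 fold changes from 1.31 to 1.41. The abundant Hist2h2bb rose from 208 and 204 CPM to 428 and 388 CPM (2.00-fold, adjusted p = 9.85e-09, edgeR), and Hist1h4d went from 210.1 and 178 CPM to 359 and 338 CPM (1.81-fold). Hist1h2bb had the smallest footprint change of the 40 called genes, from 101 and 121 CPM to 153 and 147 CPM (1.37-fold, adjusted p = 0.0174, edgeR). Hist2h3b was the only histone gene with a negative footprint value, -0.34 (standard error 0.61), on at most 5.77 CPM.

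**Figure D3:**
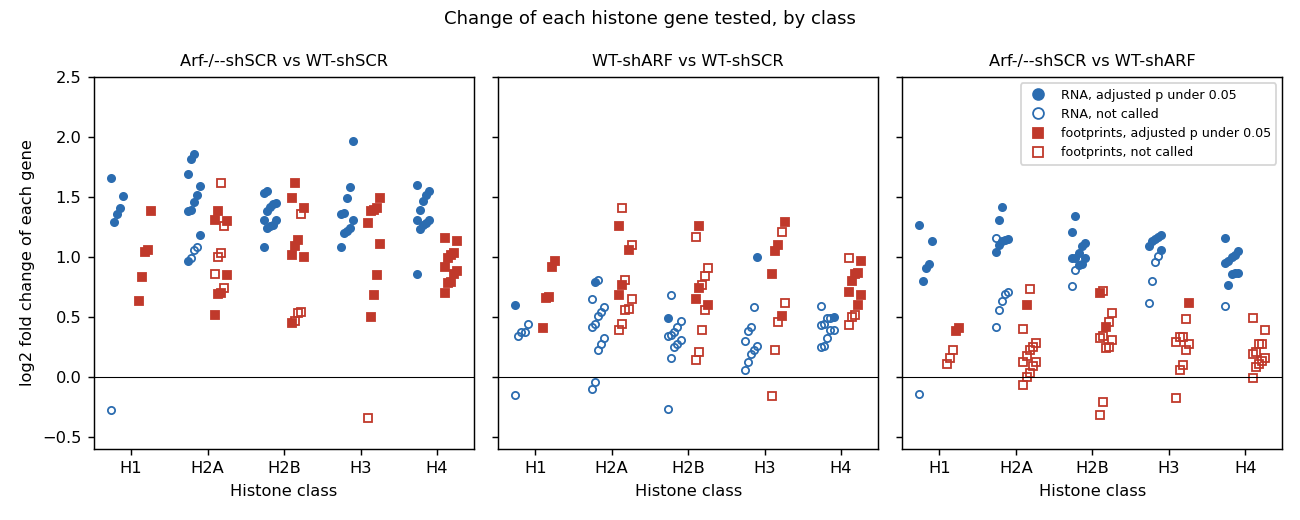
log2 fold change of each histone gene tested, by class, in RNA (circles) and footprints (squares), for the 3 comparisons; filled symbols passed an adjusted p under 0.05. Loss of Arf against WT-shSCR shows 48 filled circles and 40 filled squares, the knockdown label against WT-shSCR 5 and 25, and the direct comparison 38 and 6.

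In the libraries labelled WT-shARF, RNA and footprints moved by different amounts. In RNA 3.11% of 10503 genes were called higher and 4.17% lower, and of 52 histone genes tested 5 were called higher and 0 lower. The median log2 fold change was 0.38, against -0.00 over all genes, and 48 of 52 values were above 0. The 5 were Hist1h3d (16.9 and 11.6 against 35.9 and 24.6 CPM, log2 fold change 1.00), Hist1h2ak (55.0 and 38.1 against 88.5 and 77.8 CPM, 0.79), Hist1h1e (241 and 209.8 against 375 and 315 CPM, 0.60), Hist1h4d (321 and 245 against 488 and 327 CPM, 0.50) and Hist2h2bb (366 and 308 against 552 and 404 CPM, 0.49). That is 1 gene of each class. The groups do not overlap for any of them. For 32 of 52 genes both WT-shARF libraries were above both WT-shSCR libraries, against 24.9% of all genes. The count of calls turned on single libraries: it was 16 without WT-shSCR replicate 1, 1 without WT-shSCR replicate 2 and 0 without WT-shARF replicate 1, with medians of 0.57, 0.30 and 0.25.

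In footprints 5.63% of 10307 genes were called higher and 5.50% lower, and 25 of 50 histone genes were called higher and 0 lower by edgeR's quasi-likelihood test. The median log2 fold change was 0.69, against -0.00 over all genes. All 5 tested H1 genes rose, with 4 of 12 H2A, 4 of 12 H2B, 5 of 10 H3 and 7 of 11 H4 genes. Both WT-shARF libraries were above both WT-shSCR libraries for 43 of 50, against 25.5% of all genes. Hist1h1b went from 263 and 275 CPM to 413 and 441 CPM (1.59-fold, adjusted p = 4.49e-06, edgeR). Hist1h1e, from 152 and 166 CPM to 285 and 315 CPM, rose 1.89-fold. Hist1h4d went from 210.1 and 178 CPM to 394 and 311 CPM, or 1.81-fold, beside 1.81-fold in the Arf-/--shSCR MEFs, which share these controls. Hist2h2bb rose 1.67-fold, from 208 and 204 CPM to 378 and 313 CPM.

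The largest footprint log2 fold changes among called genes under that label were those of Hist1h3h (1.29), Hist1h2bk and Hist1h2ae (1.26 each), Hist1h3g (1.10) and Hist1h2ai (1.06). Hist1h3i (1.05), Hist1h1a (0.97), Hist1h4k (0.97), Hist1h1e (0.92) and Hist1h4h (0.87) came next. Hist1h3g, whose stem-loop is shown above, had RNA of 46.7 and 44.5 CPM in WT-shSCR and 55.2 and 42.2 CPM in WT-shARF. Its footprints were 22.6 and 19.3 against 45.8 and 44.1 CPM. A part of the stem-loop in this was not tested, and Hist1h4a and Hist2h2ac also held a version found in 1 gene only. Of the genes called in RNA, 4 of 5 (80.0%) were also called in footprints, and these are 16% of the 25 footprint calls. The count fell most without WT-shARF replicate 2, to 15.

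**Figure D4:**
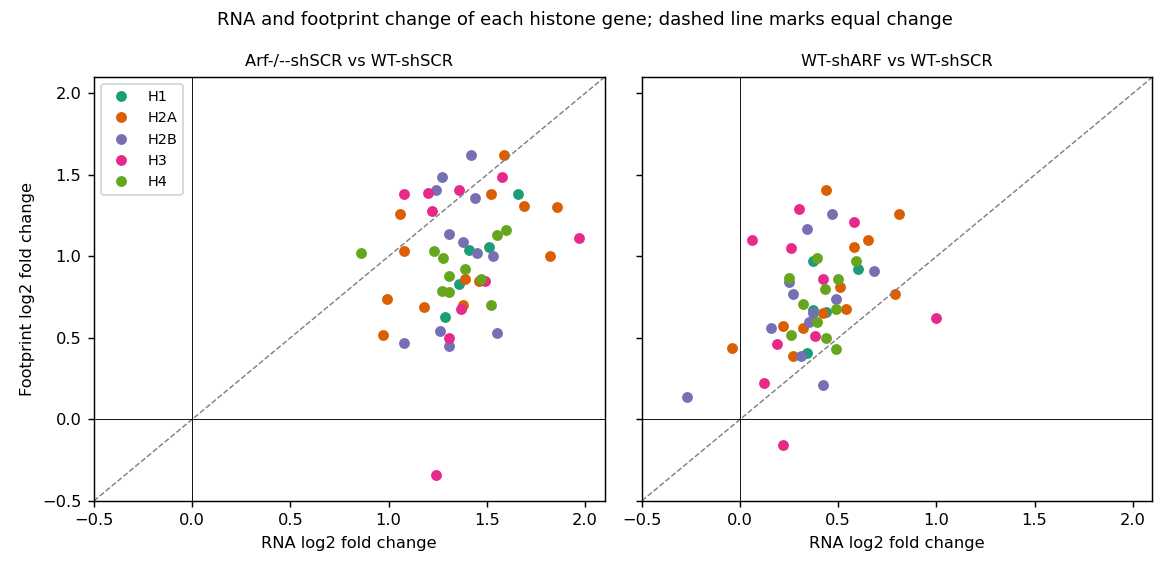
Footprint against RNA log2 fold change of each histone gene, against WT-shSCR, coloured by class, for Arf-/--shSCR (left) and WT-shARF (right); the dashed line marks equal change. On the left 41 of 51 genes lie below the line, and on the right 45 of 50 lie above it.

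Translational efficiency (TE, the change of footprints over the change of RNA) was tested as an interaction term, assay by group, in fits of 8 libraries. For Arf-/--shSCR against WT-shSCR, 0.0884% of 11314 genes were called higher and 0.106% lower. Of 52 histone genes 0 were called in either direction by edgeR's quasi-likelihood test, 15 had an unadjusted p under 0.05, and DESeq2 called 1 lower. The median log2 fold change was -0.48, against -0.04 over all genes, and 43 of 52 values were below 0. Classes were alike, with medians of -0.52 for H1, -0.49 for H2A, -0.39 for H2B, -0.40 for H3 and -0.47 for H4. The value differed between the Arf-/--shSCR replicates, which lie apart in RNA. Without Arf-/--shSCR replicate 2 the median was -0.04, and 28 of 52 genes were below 0, and without replicate 1 it was -0.78 with 5 genes called lower.

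For WT-shARF against WT-shSCR the TE median went the other way, to 0.32 against 0.01 over all genes, with 46 of 52 values above 0. Of 11289 genes 0.0354% were called higher and 0% lower, and of the histone genes 0 were called, with 6 at an unadjusted p under 0.05 and 0 called by DESeq2. Left-out replicates moved the median between 0.11 (without WT-shARF replicate 2) and 0.49 (without WT-shARF replicate 1). Both comparisons use the same WT-shSCR libraries, so their values are not independent.

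As a level, footprints over RNA CPM, the histone genes were low in each group. The median over the members tested was 0.544 in WT-shSCR, 0.680 in WT-shARF and 0.422 in Arf-/--shSCR, against 0.951, 0.959 and 0.944 over all genes tested. Hist2h4, 84.6% unique, lay above the median of all genes in each group, with 1.49, 1.88 and 1.08 in the same order. So did Hist1h4i, 29.2% unique, with 1.12, 1.32 and 1.24. Hist1h3c, Hist1h3e and Hist1h2bj lay above that median in WT-shSCR and WT-shARF but not in Arf-/--shSCR. H2B genes had the lowest class median in each group, at 0.401, 0.443 and 0.313. The median footprint level lay further below that of RNA where the unique share was low. Over the 6 libraries of each assay, genes 5% to 20% unique had medians of 56.2 CPM in RNA and 13.3 CPM in footprints. The medians were 91.0 and 49.1 CPM between 20% and 50% unique, and 144 and 136 CPM above 50%. Each assay's median can rest on a different gene. Among tested genes above 50% unique, only Hist2h4 lay above the median of all genes, in each group. In WT-shSCR the ratio was 0.438 for Hist1h1a (99.3% unique), 0.644 for Hist1h1b (94.0%), 0.612 for Hist2h2bb (89.5%) and 0.863 for Hist4h4 (97.9%). How far reads that could not be placed lower the ratio was not tested. Ratios per replicate set same-numbered libraries of the assays against each other, a pairing that no source gives. In the Arf-/--shSCR replicates the median of all members was then 0.520 and 0.335, both below the WT-shSCR replicates (0.549 and 0.658). Other pairings were not tried.

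Arf-/--shSCR and WT-shARF MEFs were also compared directly. In RNA 1.38% of 10632 genes were called higher and 1.19% lower, and 38 of 52 histone genes were called higher and 0 lower by edgeR's quasi-likelihood test, with a median log2 fold change of 0.99 against 0.00 over all genes. Both Arf-/--shSCR libraries were above both WT-shARF libraries for 49 of 52, against 23.6% of all genes. In footprints 3.93% of 10941 genes were called higher and 4.30% lower, and of 51 histone genes 6 were called higher and 0 lower, with a median of 0.25. Both Arf-/--shSCR libraries were above both WT-shARF libraries for 24 of 51, against 25.2% of all genes. These 6 were Hist1h2bg (0.70), Hist1h3a (0.62), Hist1h2ak (0.60), Hist1h2bj (0.42), Hist1h1a (0.41) and Hist1h1b (0.38). Hist1h1b was 413 and 441 CPM in WT-shARF and 568 and 543 CPM in Arf-/--shSCR. For Hist1h4d (-0.01) and Hist1h2ab (-0.00) the footprint difference was smaller than its standard error. For all 51 genes tested in both assays the RNA difference was the larger. The RNA count was 3 without WT-shARF replicate 1 and 0 without replicate 2, when 0.141% and 0% of all genes were called higher. The RNA median was then 1.16 and 0.80. The footprint count was 0 without either WT-shARF replicate and 3 without Arf-/--shSCR replicate 1.

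The TE of 53 histone genes had a median of -0.75 between these groups, against 0.00 over all genes, and 52 of 53 values were below 0. Of all genes 0.0172% were called higher and 0.0258% lower, and Hist1h2bb was the 1 histone gene among them. Its RNA was 235 and 224 CPM in WT-shARF and 364 and 513 CPM in Arf-/--shSCR, whereas its footprints were 187 and 162 CPM against 153 and 147 CPM. Neither pair of groups overlaps, and they lie in opposite order. The TE log2 fold change was -1.14 (standard error 0.19, adjusted p = 0.0159, edgeR). Its footprints over RNA, by same-numbered libraries, were 0.798 and 0.724 in WT-shARF, 0.421 and 0.287 in Arf-/--shSCR and 0.586 and 0.669 in WT-shSCR MEFs. Without Arf-/--shSCR replicate 2 the value was -0.79 (adjusted p = 0.129, edgeR), without WT-shARF replicate 1 -1.06 (adjusted p = 0.571) and without replicate 2 -1.20 (adjusted p = 0.491). Of the 53 genes 35 had an unadjusted p under 0.05. The median TE was -0.36 without Arf-/--shSCR replicate 2 and -1.06 without replicate 1, when 26 genes were called lower.

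**Figure D5:**
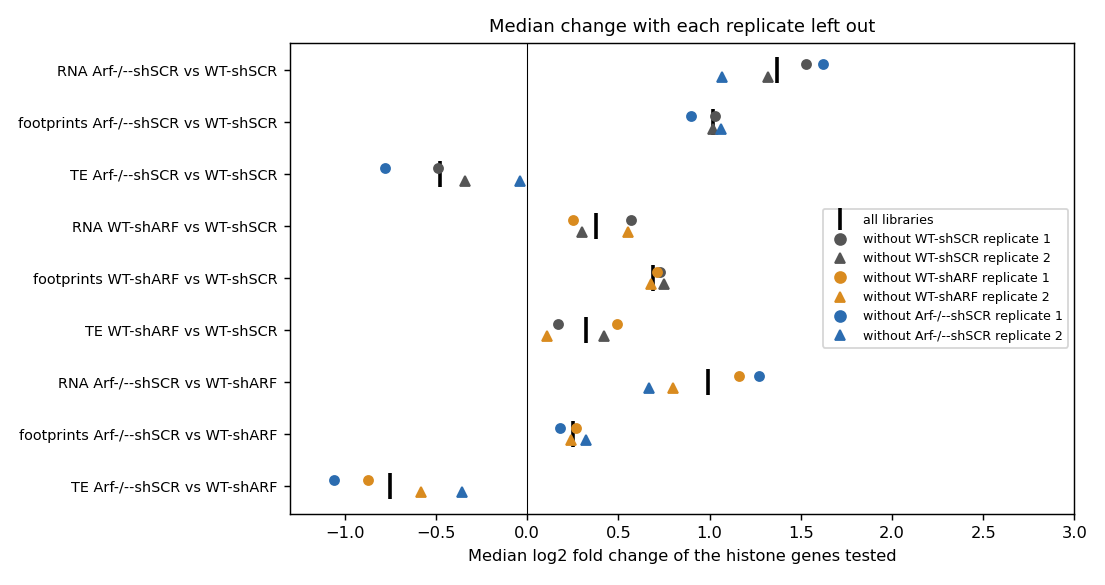
Median log2 fold change of the histone genes tested with all libraries (black bars) and with 1 replicate left out (circles replicate 1, triangles replicate 2, coloured by group), for RNA, footprints and TE. The footprint medians stay within 0.90 to 1.06 for Arf-/--shSCR against WT-shSCR, while its TE medians run from -0.78 to -0.04.

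The changes were also split by unique share. In RNA of Arf-/--shSCR against WT-shSCR, the median log2 fold change was 1.31 for the 11 tested genes above 50% unique, 1.39 for the 22 between 20% and 50% and 1.31 for the 19 at or under 20%. In footprints the medians were 0.94, 1.01 and 1.16, and 9 of 10, 22 of 22 and 9 of 19 genes were called higher. Windows were matched without mismatches and against transcripts only, and members with short annotated ends could not be extended on both sides.

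The replication-independent histone variants, which are mostly made from polyadenylated mRNA, mostly had values above 0. In Arf-/--shSCR against WT-shSCR these were 9 of 11 in RNA and 10 of 11 in footprints, beside 5292 of 10659 and 5363 of 10737 genes in all. Of 11 tested in Arf-/--shSCR against WT-shSCR, 4 rose and 1 fell in RNA, where 3.94% of all genes rose and 3.99% fell, with a median of 0.61. Cenpa, the centromeric H3, rose with a log2 fold change of 1.76, H2afy2 with 1.25 and H2afx with 1.19, while H2afj, an H2A variant, fell by 1.38. H2afx, which can also be made as a stem-loop mRNA and held the motif in the search, was called in both assays in the Arf-/--shSCR MEFs. Under the WT-shARF label its footprints rose (0.83) with an RNA value of 0.16. Its RNA rose between WT-shARF and Arf-/--shSCR (1.01, adjusted p = 0.0131, edgeR), whereas its footprint difference was 0.11. In footprints of Arf-/--shSCR against WT-shSCR 6 variants rose and 1 fell, with a median of 0.56, where 9.57% of all genes rose and 8.95% fell. Under the WT-shARF label 2 rose and 1 fell in RNA, with a median of 0.22, against 3.11% and 4.17% of all genes. In footprints under that label 4 rose, with a median of 0.47, against 5.63% of all genes.

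Genes that make and cut histone mRNA were examined next, beside 3.94% of all genes called higher in RNA and 9.57% in footprints. Of 19 tested genes for synthesis and 3′ processing, 1 rose in RNA in the Arf-/--shSCR MEFs (Snrpf, 0.72) and 8 rose in footprints, with medians of 0.35 and 0.46. The largest footprint changes were in Snrpe (1.07), Snrpf (0.74) and Snrpd3 (0.74), Sm proteins shared by the U7 and the spliceosomal snRNPs, and in Slbp (0.64, adjusted p = 0.00895, edgeR). The RNA of Slbp had a value of 0.35 that did not pass. Under the WT-shARF label 0 rose in RNA and 3 in footprints, against 3.11% and 5.63% of all genes. Among the 3 was Slbp (0.59, adjusted p = 0.0494, edgeR). Npat, the coactivator, named for its role, had 0.47 in RNA and 0.03 in footprints in the Arf-/--shSCR MEFs and passed in neither. Of 9 genes for translation and decay of these mRNAs, 0 were called in RNA and 1 in footprints (Zcchc11, a uridylyltransferase, 0.96), which is near those shares of all genes.

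Histone chaperones, which carry newly made histones to DNA, rose in part. Of 17 tested, 5 rose in RNA and 8 in footprints in the Arf-/--shSCR MEFs, against 3.94% and 9.57% of all genes, with a median of 0.39 in both assays. Nasp, an H1 and H3 chaperone, had 0.79 and 1.01, and Hat1, which acetylates new H4, had 0.77 and 1.10. Under the WT-shARF label 2 rose in each assay, against 3.11% and 5.63% of all genes, with medians of 0.24 and 0.30.

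Of 20 S-phase genes, 10 rose in RNA and 15 rose and 1 fell in footprints in the Arf-/--shSCR MEFs, with a median of 0.69 in both assays. Of all genes 3.94% rose in RNA, and 9.57% rose and 8.95% fell in footprints. Under the WT-shARF label 9 rose in RNA and 10 in footprints, against 3.11% and 5.63% of all genes, with a median of 0.50 in both. The histone medians were 1.37 and 1.02 in the first comparison and 0.38 and 0.69 in the other. Between WT-shARF and Arf-/--shSCR 1 of 20 S-phase genes rose in RNA (Tk1, 0.68) and the median was 0.11. Beside them 38 of 52 histone genes rose, with a median of 0.99, against 1.38% of all genes. With 1 replicate left out that histone median ran from 0.67 to 1.27. The sets lay closer in footprints, where 2 of 20 S-phase genes rose (median 0.16) beside 6 of 51 histone genes (median 0.25). Of all genes 3.93% rose there. Ccna2, cyclin A2, had 0.87 and 1.28 in the Arf-/--shSCR MEFs and 1.03 and 1.25 under the WT-shARF label, all past the threshold by edgeR's quasi-likelihood test. E2f1, with a footprint value of -0.81, was the S-phase gene that fell.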

How the data were processed

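RNAseq and ribosome profiling libraries of MEFs were analysed from the counts per gene that the authors deposited, which are not normalized. Per the study's methods and the submitters' processing notes, the authors clipped adapters and molecular identifiers, discarded reads matching rRNA or ncRNA (Bowtie2), mapped what remained with TopHat (mm10) and ran HTSeq over annotated coding regions, which leaves out alignments that are not unique. The methods name UMI-tools for removing identifiers and no step for duplicates, and versions are not given in the sources used here. Duplicate reads may therefore be counted. HTSeq's rows that name no gene held 94.74% to 96.83% of RNAseq and 57.12% to 64.82% of ribosome profiling alignments and were left out.

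The fits used edgeR 4.0.16 in R 4.3.3: TMM factors, filterByExpr and the quasi-likelihood F test over the 4 libraries of a comparison, or 8 for TE, adjusted by Benjamini-Hochberg over all genes at 0.05. CPM values use TMM factors over the 6 libraries of an assay. DESeq2 1.42.0 was an alternative, with other factors, filters, sample sets, replicate blocks and left-out replicates. Members follow from their symbols, but this group of genes, its members and the lists were chosen with earlier results of these data known. Genes are named by fixed rules: in each class the 4 with the highest mean CPM, members called in a fit (at most the 10 largest), and at most 4 called genes of other lists. Exceptions named outside these rules were chosen after their values were seen. In simulated counts with 200 genes changed by a log2 of 1, edgeR recovered 33.5% in RNA (10356 genes), 53.0% in footprints (10514 genes) and 16.0% in TE (11050 genes) of the comparison of Arf-/--shSCR with WT-shSCR. Sequence windows and motifs were searched in Python 3.11.15 with numpy 2.4.6 in GENCODE M21 transcripts and RefSeq promoters.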

Additional observations from a re-analysis of the deposited data

Results flagged for a closer look

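Hist1h2bb, an H2B gene of the chromosome 13 cluster, was singled out because its change between Arf-/--shSCR and WT-shARF MEFs differed between RNA and footprints in a test of the difference itself. The log2 fold change was 0.93 in RNA and -0.21 in footprints, and the interaction was -1.14 (standard error 0.19, adjusted p = 0.0159 by edgeR's quasi-likelihood test). The ratio of footprints to RNA was lower in both Arf-/--shSCR libraries than in both WT-shARF libraries. With 1 library left out the value was -1.06 (adjusted p = 0.571) without WT-shARF replicate 1, -1.20 (adjusted p = 0.491) without WT-shARF replicate 2, -1.40 (adjusted p = 2.82e-06) without Arf-/--shSCR replicate 1 and -0.79 (adjusted p = 0.129) without Arf-/--shSCR replicate 2, so the call was lost in 3 of 4 cases. Over the other alternatives, edgeR and DESeq2 gave adjusted p from 1.14e-06 to 0.0326. The direction is not particular to Hist1h2bb. In that comparison 52 of 53 histone genes had a TE value below 0, with a median of -0.75, and another H2B gene had -1.33 without being called.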

How the results depend on the processing

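For Arf-/--shSCR against WT-shSCR, leaving out 1 replicate gave 29 to 49 genes called higher in RNA (median log2 fold change 1.07 to 1.62) and 0 to 34 in footprints (0.90 to 1.06). In TE 0 to 5 genes were called lower (-0.78 to -0.04). For WT-shARF against WT-shSCR it gave 0 to 16 in RNA (0.25 to 0.57), 15 to 26 in footprints (0.68 to 0.75) and a TE median of 0.11 to 0.49. For Arf-/--shSCR against WT-shARF it gave 0 to 48 in RNA (0.67 to 1.27), 0 to 5 in footprints (0.18 to 0.32) and 0 to 26 genes lower in TE (-1.06 to -0.36). A group left with 1 library is assumed to vary like the other.

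The 5 genes called higher in RNA of WT-shARF against WT-shSCR became 1 with DESeq2, 3 with TMM factors made without histone and ribosomal protein genes, 18 with library totals alone, 8 with no filter, 8 with at least 10 counts in every library, 2 with all groups in 1 fit and 13 under the replicate block (number as a term). The 6 called in footprints of Arf-/--shSCR against WT-shARF became 3 with DESeq2, 4 with all groups in 1 fit, 8 with library totals alone or no filter and 9 under the replicate block. The 0 called lower in TE of Arf-/--shSCR against WT-shSCR became 1 with DESeq2, with no filter and with at least 10 counts. The 1 called lower in TE of Arf-/--shSCR against WT-shARF became 2 with DESeq2, 13 with no filter, 2 with the replicate block and 16 with a block by culture, which assumes that same-numbered RNAseq and ribosome profiling libraries share a culture. Same-numbered libraries did not deviate together (r of -0.07 to 0.05). Genes with as few as 10 counts per library entered, so counting noise could hide a shared culture, and pairing was not excluded. The causes were not tested.

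The median unique share was 16.7% at 20 nt and 27.9% at 34 nt. Among 1453 values of named genes under an alternative, 1250 kept their direction and side of the threshold, 177 lost the call, 23 gained it and 3 changed sign, all in RNA of WT-shARF against WT-shSCR. With 1 replicate left out Hist2h2ac ran from -0.10 to 0.72 and Hist1h4h from -0.04 to 0.67, both lowest without WT-shSCR replicate 2, and Hist1h3f from -0.21, without WT-shARF replicate 1, to 0.57. Depth limits genes with few unique reads: 15 of the 68 could not be tested.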
